A study of Danio rerio with 24 samples.

Results

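Respiratory complex I is built from subunits encoded in the nucleus and subunits encoded in mitochondrial DNA, and the genes described here are the nuclear ones: every gene whose symbol begins with nduf followed by a, b, c, s or v and a number, together with the acyl carrier genes NDUFAB1 and ndufab1b, with the ndufaf assembly factors left out. The rule found 42 genes among the 32520 genes of the liver tables, and 37 of the 38 nuclear subunits listed by role had at least 1 gene; ndufa13 was not analysed here. Gene names follow the annotation table, which writes some zebrafish genes in capitals, and the gene listed as NDUFAB1 was taken as ndufab1a. Livers of 24 adult zebrafish of the ABTL strain were sequenced, 6 in each of 4 groups and 3 males and 3 females in each group. OF-training fish were overfed on living shrimps (9 mL for each fish) and trained in a swim tunnel in 20 sessions over 8 weeks, OF-control fish were overfed and not trained, NF-training fish were fed normally and trained, and NF-control fish were fed normally and not trained. Fish were kept 6 to a tank and the tank of each fish is not given in the sources used here, so that the effect of a tank and that of a treatment cannot be told apart. All fish were fasted overnight before the livers were taken.

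Complex I takes electrons from NADH, passes them along a chain of iron-sulfur clusters to ubiquinone and pumps protons across the inner mitochondrial membrane. Its core subunits carry the flavin, the clusters and the quinone site, while the accessory subunits surround the core in a matrix arm and a membrane arm and serve assembly and stability. Liver is rich in mitochondria, and complex I is the main entry point for electrons from NADH into its respiratory chain. The roles named below are those known from the mammalian enzyme.

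Transcript levels are given as TPM, which can be compared between genes, and group comparisons as CPM scaled by the trimmed mean of M-values (TMM), which can be compared between fish. Libraries held 19315642 to 21399321 estimated counts. Vitellogenin genes, the egg yolk precursors made by the female liver, took 29.3 to 74.5% of the counts in the 12 females and 0.00692 to 0.159% in the 12 males, so the 42 genes together received 9322 to 25097 counts in females, against 32448 to 57774 in males. Outside the vitellogenin genes the 42 genes took a median of 0.203% of the counts in males and 0.197% in females. The hepatocyte markers summed to between 17960 and 91770 CPM over the 24 fish. NF-control replicate 4, a male, stood apart with 1908 TPM of FABP2, 156 TPM of VIL1 and 16.8 TPM of cdx1b, all intestinal markers, against at most 36.8, 1.495 and 1.65 TPM in any other fish. NF-training replicate 3, a female, had the lowest vitellogenin share of the females and 82.2 TPM of epcam, an epithelial marker, against at most 14.6 TPM elsewhere. OF-training replicate 6, a male, had a summed 91.9 CPM of the 2 skeletal muscle markers, against at most 9.80 CPM in any other fish, and OF-training replicate 3, a female, had 5.82 CPM of the 4 ovary markers, against at most 0.826 CPM. In bulk tissue, fewer cells of a type and less RNA per cell cannot be told apart.

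NDUFA4 was the highest, with 775 ± 118 TPM in males and 543 ± 115 TPM in females (SD, n = 12 each); NDUFA4 was first described in complex I and is now counted as a subunit of complex IV. NDUFB1, a small membrane arm subunit, followed with 679.9 ± 82.8 TPM in males and 362 ± 93.1 TPM in females, although only 76 to 503 counts per fish lay behind these values. NDUFA1, a membrane arm subunit needed for assembly, had 229.8 ± 54.4 TPM in males and 181.1 ± 45.9 TPM in females. As TMM-scaled CPM, the means of NDUFA4 and NDUFA1 were higher in females (197 and 23.85, against 174.9 and 19.45 in males). That of NDUFB1 was higher in males (11.96, against 10.01 in females). The ranges of NDUFA4 and NDUFB1 overlapped in each sex, and so did those of NDUFA1 and the next gene, NDUFB8.

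The 7 core subunits lay between 37.6 and 81.2 TPM (means over 24 fish) with a median of 50.7 TPM, while the 19 membrane arm accessory subunits had a median of 78.7 TPM and the 10 matrix arm accessory genes one of 62.5 TPM. NDUFS8, a carrier of iron-sulfur clusters, was the highest core gene, with 102 ± 22.7 TPM in males and 60.7 ± 8.71 TPM in females. NDUFS3, which lies beside the quinone-binding subunits, was the lowest core gene, with 46.8 ± 7.31 TPM in males and 28.4 ± 5.61 TPM in females. The acyl carrier genes NDUFAB1 and ndufab1b averaged 53.8 and 46.0 TPM. For comparison, the 7 complex I genes of mitochondrial DNA averaged 1995 to 4415 TPM, far above the nuclear subunits.

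At the other end, 2 genes were hardly detected at this depth. ndufa4l2b was listed at 0 in all 12 females and did not exceed 0.231 TPM in males, and ndufa9b, listed as a pseudogene in RefSeq, did not exceed 0.293 TPM; both failed the filter on low counts, which left 40 genes for testing. The lowest genes that passed were ndufa4b (1.60 to 30.6 TPM in males, 0.745 to 4.79 TPM in females) and NDUFA4L2 (2.31 to 9.37 TPM in males, 0.914 to 3.33 TPM in females), a relative of NDUFA4 that responds to hypoxia in mammals. NDUFA3, a small membrane arm subunit, came next with 28.1 ± 2.92 TPM in males and 17.6 ± 2.29 TPM in females.

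**Figure D1:**
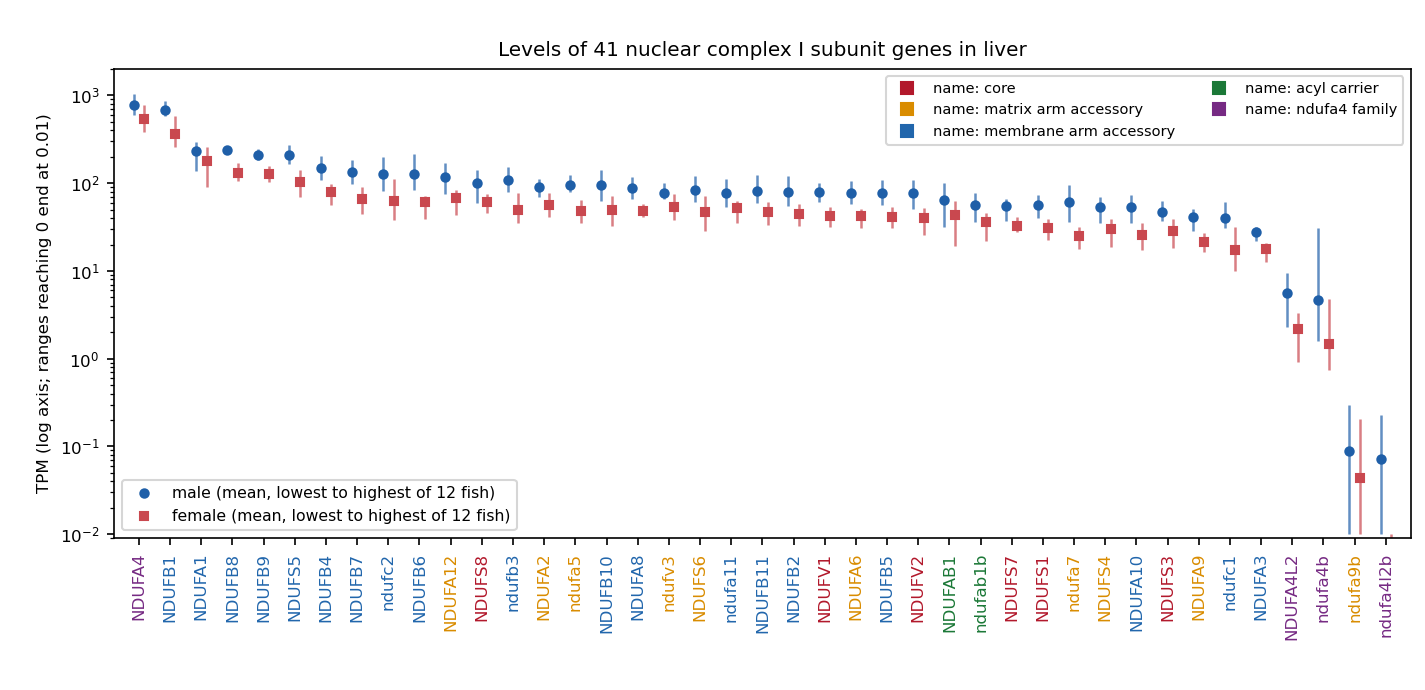
TPM (log axis) of 41 of the genes, ordered by mean, in males (circles) and females (squares); markers are means of 12 fish and lines run from the lowest to the highest fish. Most means lie between 22.8 and 205 TPM, NDUFA4 and NDUFB1 stand above them, and ndufa9b and ndufa4l2b lie near 0. The sexes are compared in the text as TMM-scaled CPM, not as TPM.

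The first comparison set the 12 males against the 12 females, with the group as a covariate. Of the 40 tested genes, 16 were higher and 1 was lower in males at an adjusted p under 0.05 (edgeR), where 23.2% of all 16223 tested genes were called higher and 22.6% called lower. The median log2 fold change was 0.21, against 0.06 over all genes, and 36 of the 40 values were above 0. The ranges of the 12 males and the 12 females overlapped for every gene. The level of all genes in this comparison depends on the scaling: on the TPM scale, log2(TPM + 0.1), the median of all genes itself moved to 0.65 and that of the 40 genes to 0.86, and with library size alone they moved to 1.44 and 1.64, so that the genes stood above the median of all genes by 0.21 and 0.20. This gap was 0.15 with DESeq2 and with limma voom, 0.11 with no filter on low counts and 0.47 on log2(TPM + 1). When the vitellogenin share of each fish was added as a covariate, 0 of the 40 genes and 779 of all genes were called, while the median of the 40 genes was 0.37, against 0.0006 over all genes. The share did not overlap between the sexes, so that it and sex cannot be told apart.

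The called genes were mostly accessory subunits of the membrane arm, of which 11 of 19 were higher and 1 lower in males, against 3 of 9 in the matrix arm and 1 of 7 core subunits. ndufa7, a matrix arm subunit, had the smallest p. Its CPM ran from 5.72 to 13.6 in males with a median of 8.80, and from 5.13 to 7.69 in females with a median of 5.92. The log2 fold change was 0.61 ± 0.10 (SE, adjusted p = 4.2e-05), and the ranges overlapped only at the low end of the males.

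NDUFA10, a membrane arm subunit with a nucleoside kinase fold, ran from 23.3 to 43.9 CPM in males with a median of 34.9, and from 22.5 to 29.4 CPM in females with a median of 25.1. Its log2 fold change was 0.43 ± 0.10 (adjusted p = 0.00088). ndufb3, a small membrane arm subunit, ran from 22.2 to 38.6 CPM in males (median 28.8), and from 17.3 to 26.2 CPM in females (median 20.5), and its log2 fold change was 0.44 ± 0.10 (adjusted p = 0.00095). In both genes the highest males lay well above the highest female, while the lowest males lay within the female range.

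ndufc1, another small membrane arm subunit, ran from 3.89 to 6.92 CPM in males (median 4.62), and from 2.06 to 4.43 CPM in females (median 3.54), and had a log2 fold change of 0.60 ± 0.14 (adjusted p = 0.0014). ndufa5, a matrix arm subunit, followed with 0.36 ± 0.09 (adjusted p = 0.0016) and NDUFS5, on the intermembrane side of the membrane arm, with 0.38 ± 0.09 (adjusted p = 0.0020). NDUFB6, NDUFB7, NDUFB5, NDUFB1, NDUFB10, NDUFB8 and ndufc2 of the membrane arm, and NDUFA9, which lies near the quinone site, were also called higher in males, with log2 fold changes of 0.24 to 0.42. NDUFA4L2 ran from 1.44 to 5.30 CPM in males, against 0.836 to 2.87 CPM in females (log2 fold change 0.77 ± 0.22, adjusted p = 0.0064), and the ranges overlapped. NDUFA1 was the only gene called lower in males: its CPM ran from 14.0 to 24.8 in males (median 20.2), and from 18.1 to 29.3 in females (median 23.2), and the log2 fold change was -0.30 ± 0.11 (adjusted p = 0.023). On the TPM scale, where the median of all genes shifts up in males, the value of NDUFA1 turned to 0.35. The call was lost (adjusted p up to 0.12) without NF-control replicate 1, 2 or 3, OF-control replicate 5 or 6, NF-training replicate 2, or OF-training replicate 2 or 3. NDUFB8 lost its call without NF-control replicate 5 or 6, OF-control replicate 1, 2 or 3, NF-training replicate 3 or 5, or OF-training replicate 4, 5 or 6 (adjusted p up to 0.078). NDUFB10 lost its call without OF-control replicate 3 or NF-training replicate 4, and ndufc2 without NF-control replicate 6, OF-control replicate 2 or NF-training replicate 6 (adjusted p up to 0.061 and 0.082).

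The genes below 0 other than NDUFA1 did not pass the threshold. NDUFA4 was at -0.18 ± 0.13 (adjusted p = 0.27), ndufa11 at -0.11 ± 0.09 (adjusted p = 0.34) and NDUFAB1, the mitochondrial acyl carrier protein, at -0.10 ± 0.16 (adjusted p = 0.64), while its copy ndufab1b was at 0.02 ± 0.12 (adjusted p = 0.90). ndufa4b, the copy of NDUFA4, was at 0.67 ± 0.37 (adjusted p = 0.14), with 15.8, 1.19 and 1.95 CPM in the 3 NF-control males and 0.798 to 3.62 CPM in all other fish. The fish at 15.8 CPM was replicate 4, the library with intestinal transcripts. With library size alone all of these values were above 0, as were those of NDUFA4 and ndufa11 on the TPM scale.

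Among the core subunits, NDUFV1, which binds the flavin and takes the electrons from NADH, was the one called. It ran from 60.5 to 93.5 CPM in males (median 75.1), and from 47.3 to 76.8 CPM in females (median 61.7), with a log2 fold change of 0.27 ± 0.09 (adjusted p = 0.021). NDUFV2, its partner with an iron-sulfur cluster, missed the threshold at 0.30 ± 0.12 (adjusted p = 0.051, and under 0.05 with DESeq2 and limma voom), and NDUFS1, the largest subunit of the core, at 0.19 ± 0.11 (adjusted p = 0.15). NDUFS7, NDUFS8 and NDUFS3 lay near the median of all genes, at 0.09, 0.09 and 0.08, with adjusted p of 0.53, 0.51 and 0.49 (edgeR).

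**Figure D2:**
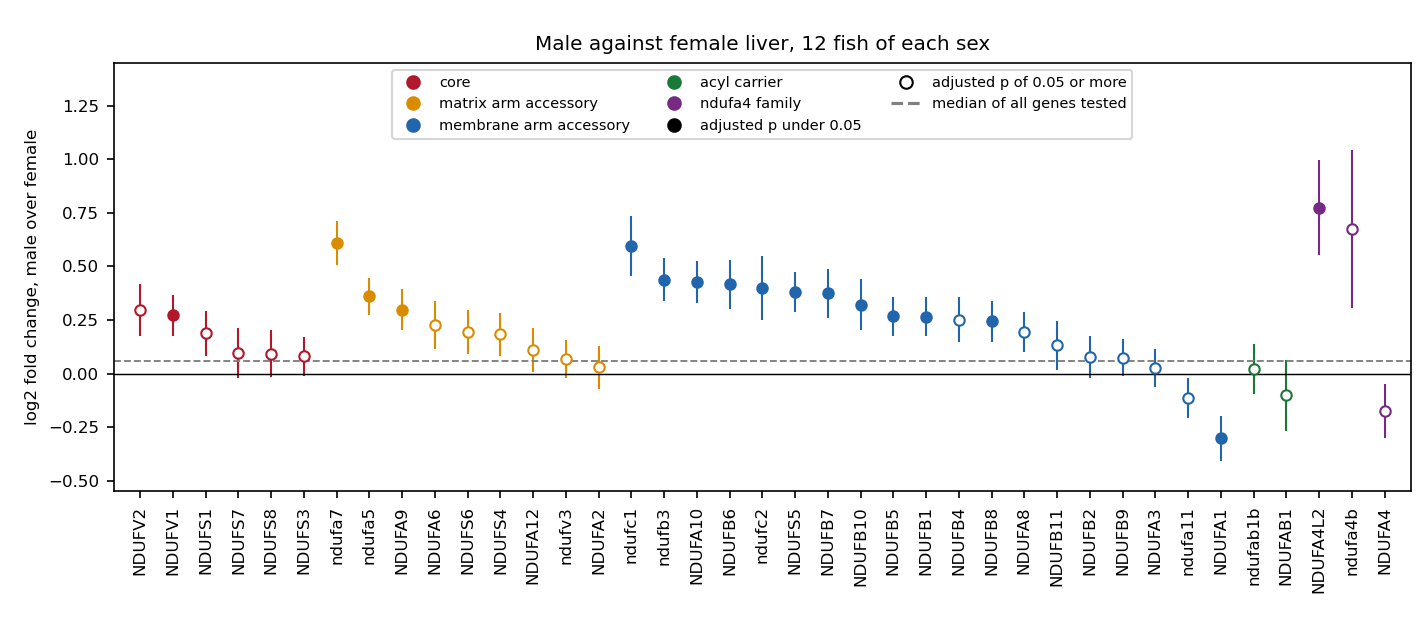
Log2 fold change of male over female liver (bars: SE) of 39 of the tested genes by role, with 12 fish of each sex; filled circles have an adjusted p under 0.05 and the dashed line is the median of all genes. The values of the 11 called membrane arm genes lie between 0.24 and 0.60, and NDUFA1, at -0.30, is the only filled circle below 0.

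Within the 4 groups, where 3 males stood against 3 females, the counts of called genes differed. In OF-control livers 13 of the 40 genes were higher in males at an adjusted p under 0.05, against 9.3% of all genes called higher, and the median log2 fold change was 0.48. In OF-training livers 4 genes were higher (7.99% of all genes) and the median was 0.21. In NF-training and NF-control livers edgeR called 0 genes, with medians of 0.09 and 0.01. Of all genes 4.21% and 5.62% were called higher there. DESeq2 called 2 genes in NF-control, 1 of them higher in males, and 2959 of all genes in either direction. The 4 genes of OF-training were NDUFA10, ndufa7, ndufb3 and ndufc1, which were also among the 13 of OF-control. Whether these differences between the sexes differ between the groups was tested by the interactions given below. There edgeR called 0 genes and DESeq2 called 1 (17 of all genes in that interaction). The count of 4 fell to 0 without OF-training replicate 4 and to 1 without replicate 1 or replicate 5. Of all genes 2084, 3091 and 2343 were then called in either direction, in that order. The count was 3 without replicate 6 or replicate 3, the libraries with muscle and ovary transcripts. For these fits the counts over all genes are not given here.

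In OF-control livers, ndufc1 had 6.58, 4.49 and 6.92 CPM in the 3 males, against 2.06, 2.31 and 2.29 CPM in the 3 females, a log2 fold change of 1.43 ± 0.20 (adjusted p = 9.1e-05). All males lay above all females. ndufa7 had 11.5, 9.62 and 13.6 CPM in males, against 5.20, 6.21 and 6.11 CPM in females (log2 fold change 0.99 ± 0.19, adjusted p = 0.0012). NDUFA10 had 41.0, 41.6 and 43.9 CPM in males, against 24.3, 26.4 and 22.6 CPM in females (log2 fold change 0.79 ± 0.16, adjusted p = 0.0016). In NF-control livers the same gene had 25.6, 28.9 and 23.3 CPM in males, against 26.7, 25.9 and 25.1 CPM in females, and the sexes overlapped. NDUFV1, the flavin-binding core subunit, had 89.1, 93.5 and 89.4 CPM in males, against 56.1, 62.7 and 54.7 CPM in females (log2 fold change 0.65 ± 0.18, adjusted p = 0.012). In 34 of the 40 genes the 3 OF-control males lay above the 3 OF-control females, where this was so for 19.9% of all genes. Without OF-control replicate 3, the male with the highest levels for 20 of the 40 genes, 9 genes were called in place of 13. NDUFB6, NDUFS4, NDUFS5 and NDUFS6 were those that lost their call. The matching count over all genes is not given here.

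**Figure D3:**
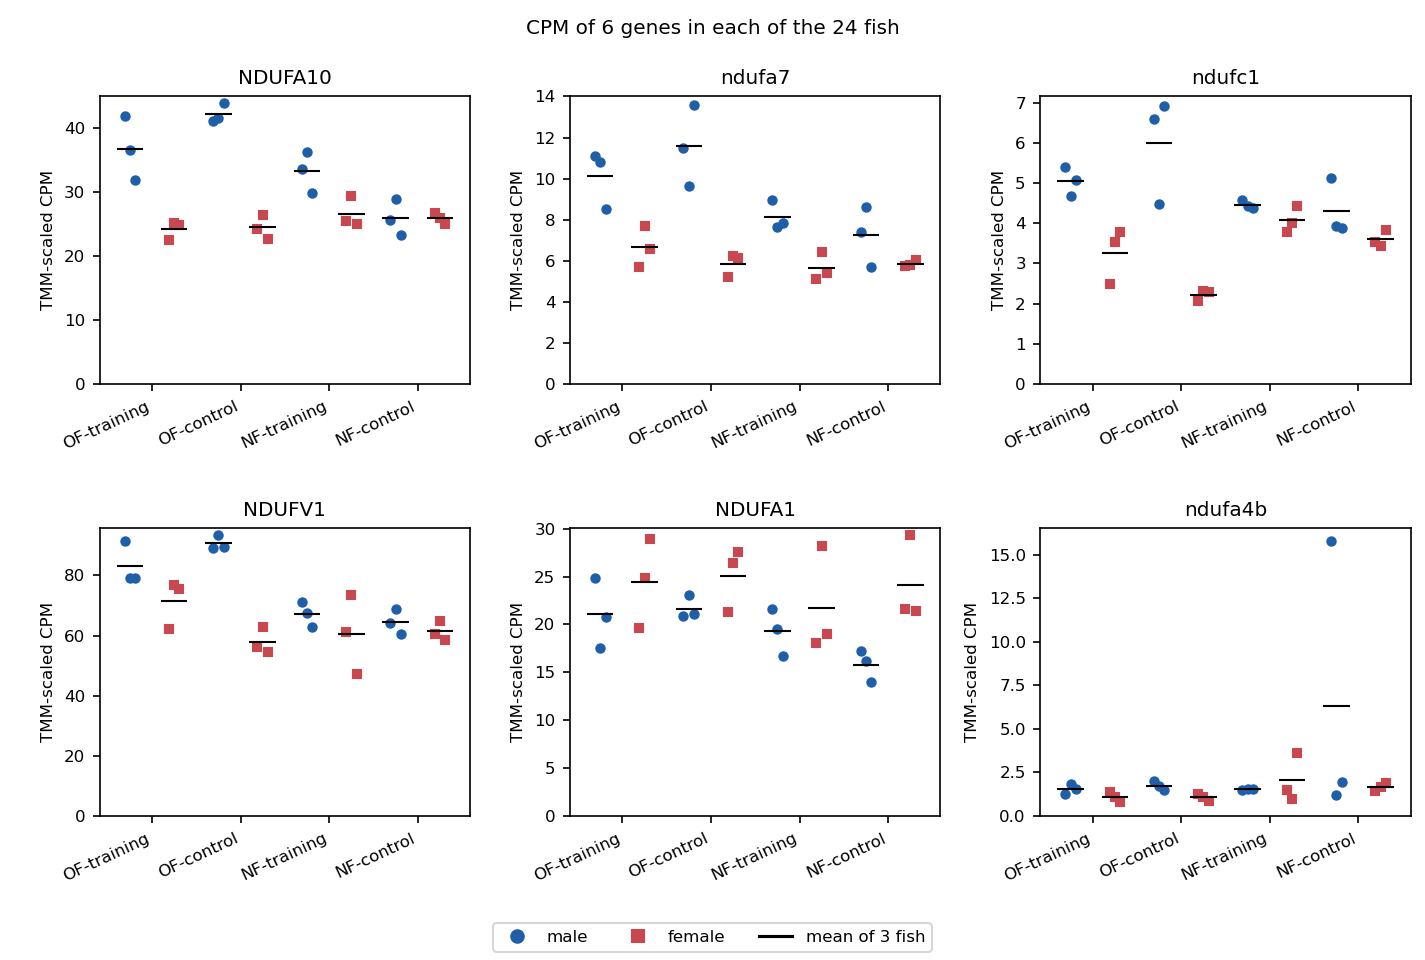
TMM-scaled CPM of 6 genes in each of the 24 fish, by group and sex (circles: males; squares: females; lines: means of 3 fish). NDUFA10, ndufa7 and ndufc1 are highest in OF-control males, NDUFA1 is the gene lower in males, and the mean of ndufa4b in NF-control males rests on 1 fish at 15.8 CPM.

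The second comparison asked what overfeeding did in untrained fish, with both sexes in the model. None of the 40 genes passed the threshold (edgeR; 0% of all genes), and the smallest adjusted p was 0.32. At an unadjusted p under 0.05, 9 of the 40 genes were higher (4.59% of all genes) and 1 was lower (6.69% of all genes) in OF-control fish. Most values were positive, with 37 of 40 above 0 and a median log2 fold change of 0.22, against 0.005 over all genes. ndufa11, a membrane arm subunit, was at 0.35 ± 0.13 (adjusted p = 0.35), NDUFB6 at 0.40 ± 0.16 (adjusted p = 0.37) and ndufa7 at 0.35 ± 0.15 (adjusted p = 0.37). ndufa4b was at -1.42 ± 0.50 (adjusted p = 0.32), a value that rests on NF-control replicate 4, the library with intestinal transcripts: without it the log2 fold change was -0.20. The other genes below 0 were ndufc2 at -0.22 ± 0.21 and ndufc1 at -0.02 ± 0.20.

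The effect was also fitted in each sex. In untrained males 38 of 40 genes were above 0 with a median of 0.46, while in untrained females 14 were above 0 with a median of -0.04. No gene passed the threshold in males (edgeR, 0.0247% of all genes), where the smallest adjusted p was 0.11, of NDUFA10. DESeq2 called 6 of the 40 genes, all higher in OF-control males, and 259 of all genes in either direction. At an unadjusted p under 0.05, 24 genes were higher in OF-control males (5.02% of all genes) and ndufa4b was lower (6.45% of all genes). In 29 of the 40 genes the 3 OF-control males lay above the 3 NF-control males (9.51% of all genes), and in females this was so for 3 genes (3.88% of all genes), with 4 genes lower throughout (4.54% of all genes). These OF-control males are the same fish as in the comparison of the sexes above. The counts rest on few fish. The 24 genes (815 of all genes) became 10 (455 of all genes) without NF-control replicate 6, the male with the lowest levels. They became 13 (645 of all genes) without OF-control replicate 3. They became 2 without NF-control replicates 4 and 6 together, the median of the 40 genes then being 0.34. Without NF-control replicate 5, on the other side, NDUFA10 and ndufa4b passed (adjusted p = 0.034 each). Sums of markers of other cells were set side by side as well. The 3 intestinal genes summed to 4.42 to 11.7 CPM in OF-control males, against 4.12 to 939.5 CPM in NF-control males. The 3 macrophage genes summed to 43.5 to 72.7 CPM, against 70.3 to 209 CPM, so that both of these sums overlapped. The 3 biliary genes summed to 109 to 132 CPM, against 136 to 233 CPM. Most of this sum was ANXA4 (96.4 to 114.5 CPM, against 118.3 to 216.2 CPM), while epcam and krt18b overlapped. Of the macrophage genes, cd74a and csf1ra overlapped and marco was lower in all OF-control males. Without NF-control replicate 4, the fish with intestinal transcripts, 18 genes had an unadjusted p under 0.05. The matching count over all genes is not given here. With NF-training replicate 3 left out as well, the median of the 40 genes was 0.45, against 0.01 over all genes. The part of the macrophage and biliary genes was not tested.

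For NDUFA10, the 3 OF-control males were at 41.0 to 43.9 CPM and the 3 NF-control males at 23.3 to 28.9 CPM, and the log2 fold change was 0.70 ± 0.16 (adjusted p = 0.11, edgeR). NDUFS4, an accessory subunit of the matrix arm, had 15.2, 15.5 and 14.98 CPM in OF-control males, against 10.7, 11.0 and 8.47 CPM in NF-control males (log2 fold change 0.60 ± 0.17, adjusted p = 0.17). NDUFA9 had 38.5, 41.0 and 40.04 CPM in OF-control males, against 25.8, 27.9 and 24.9 CPM in NF-control males (log2 fold change 0.60 ± 0.18, adjusted p = 0.17). All 3 genes were among the 29 in which the OF-control and NF-control males did not overlap. So was ndufa7, with 11.5, 9.62 and 13.6 CPM in OF-control males, against 7.42, 8.62 and 5.72 CPM in NF-control males.

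Core subunits were also above 0 in males, with log2 fold changes of 0.62 ± 0.21 for NDUFS8, 0.54 ± 0.24 for NDUFV2, 0.49 ± 0.17 for NDUFV1, 0.44 ± 0.18 for NDUFS3, 0.41 ± 0.21 for NDUFS1 and 0.27 ± 0.24 for NDUFS7, and none passed the threshold. NDUFS8 had 100.6, 95.2 and 93.7 CPM in OF-control males, against 67.8, 73.3 and 47.3 CPM in NF-control males, and these did not overlap. The acyl carrier genes were at 0.85 ± 0.33 for NDUFAB1 and 0.70 ± 0.23 for ndufab1b. In females the values of these core subunits lay between -0.11 and 0.02.

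**Figure D4:**
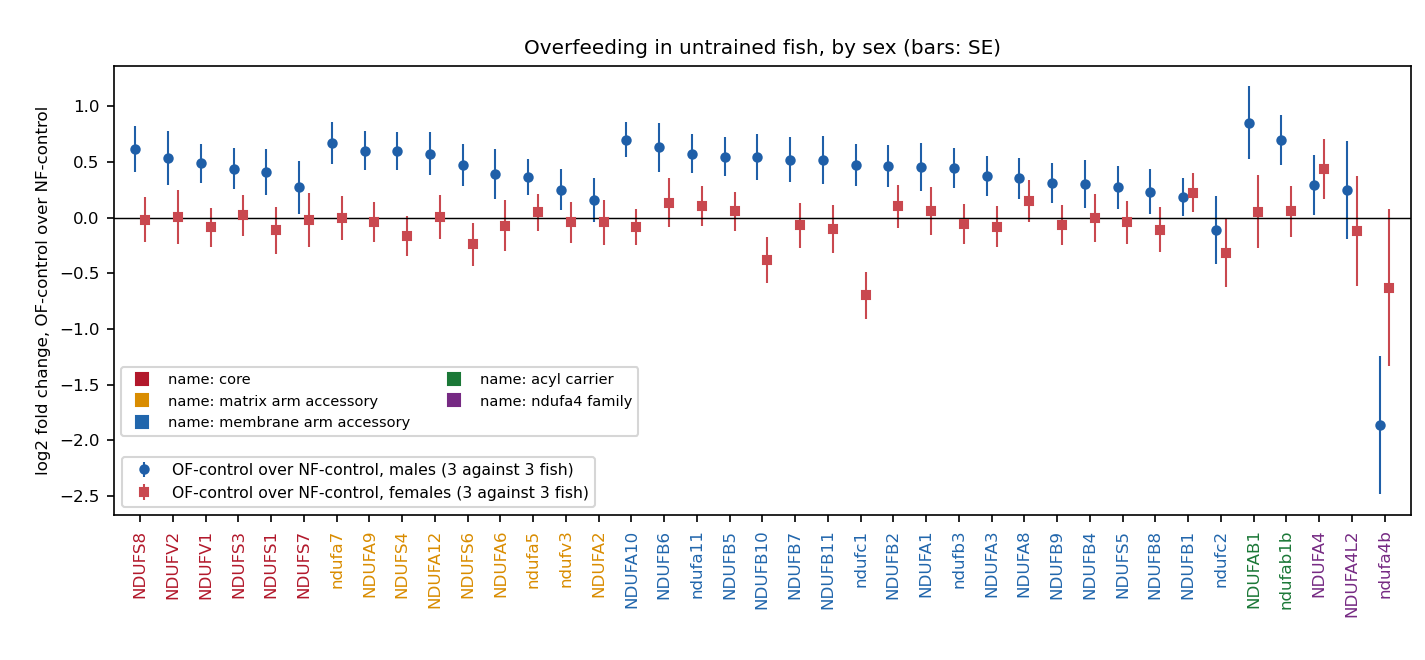
Log2 fold change of OF-control over NF-control (bars: SE) for 39 of the tested genes in males (circles) and females (squares), 3 against 3 fish each, ordered by role. In males 37 of 39 values lie above 0, in females 14 do; ndufa4b, at -1.86 in males, rests on NF-control replicate 4.

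The difference between the sexes in this comparison was tested directly as an interaction. None of the 40 genes passed (edgeR, 0% of all genes), and DESeq2 called 1 (17 of all genes). At an unadjusted p under 0.05 (edgeR), 10 genes had a positive interaction (2.96% of all genes), with a median over the 40 genes of 0.48. The 3 smallest p-values belonged to ndufc1 at 1.17 ± 0.28 (adjusted p = 0.67), NDUFA10 at 0.78 ± 0.22 (adjusted p = 0.74) and NDUFB10, a membrane arm subunit, at 0.93 ± 0.29 (adjusted p = 0.77).

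Training gave smaller values. In normally fed fish 0 of the 40 genes passed (edgeR; 0.173% of all genes), 2 were higher and 0 lower at an unadjusted p under 0.05 (5.25% of all genes were higher), and the median was 0.07. The leading genes were NDUFB1 at 0.31 ± 0.13 (adjusted p = 0.38), ndufa5 at 0.27 ± 0.12 (adjusted p = 0.43) and NDUFA4 at 0.34 ± 0.18 (adjusted p = 0.50). Of the 40 genes 29 were above 0 (50.3% of all genes) and 11 below. Among the 11 were ndufa4b at -0.94 ± 0.50, which turned to 0.18 without NF-control replicate 4, and NDUFS1 at -0.12 ± 0.15. In males 32 genes were above 0, with 7 higher and 0 lower in all 3 NF-training fish (1103 and 1121 of all genes). In females 24 were above 0, with 1 higher and 2 lower in all 3 NF-training fish (895 and 848 of all genes). In overfed fish 0 genes passed (edgeR; 0.00616% of all genes), 0 had an unadjusted p under 0.05 (5.26% of all genes) and the median was 0.04, with NDUFB8 at 0.25 ± 0.14, NDUFS7 at 0.28 ± 0.16 and ndufb3 at 0.16 ± 0.14 on the upper side and NDUFB5 at -0.13 ± 0.13, NDUFB6 at -0.17 ± 0.16 and NDUFAB1 at -0.22 ± 0.23 on the lower. The sexes lay on opposite sides here. In females 35 of the 40 genes were above 0 (51.87% of all genes), with a median of 0.19. There 7 genes were higher in all 3 OF-training fish (3.93% of all genes). In males 31 were below 0 and 9 above (47.75% of all genes above), with a median of -0.11. There 5 genes were lower in all 3 OF-training fish (7.98% of all genes). The OF-control fish are the same as in the comparisons above, so these values are not independent of those. In the interaction with sex 37 of the 40 values were below 0 and 3 above (47.69% of all genes above). The median was -0.28, against -0.03 over all genes, and 0 genes passed (edgeR).

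Overfeeding in trained fish gave a median of 0.17 with 35 of 40 genes above 0, and again 0 genes passed (edgeR; 0% of all genes), with 1 higher at an unadjusted p under 0.05 (3.64% of all genes). NDUFS1 was at 0.31 ± 0.15, NDUFS7 at 0.34 ± 0.16 and NDUFV1 at 0.27 ± 0.13, all with an adjusted p of 0.55, and ndufc2, ndufa4b and ndufa5 were at -0.26, -0.57 and -0.11. The value of ndufa4b was -0.04 without NF-training replicate 3. In trained males 38 of the 40 genes were above 0, with a median of 0.21. There 11 genes were higher in all 3 OF-training fish (1184 of all genes). In trained females 28 were above 0, with a median of 0.12. There 2 genes were higher and 1 lower in all 3 OF-training fish (593 and 799 of all genes). In each sex 0 genes passed (edgeR). The training by feeding interaction had 0 called genes (0% of all genes) and 0 with an unadjusted p under 0.05 (4.47% of all genes); ndufa5 at -0.33 ± 0.17 and NDUFA10 at -0.30 ± 0.19 had the smallest p below 0, with NDUFB1 at -0.20, and ndufa4b, NDUFS7 and NDUFS1 were at 0.85, 0.21 and 0.17. The other interactions with sex had 0 called genes as well. In normally fed fish ndufa4b and NDUFB1 were among those leading the training by sex interaction, at -2.43 and -0.50. The ndufa4b values of 0.85 and -2.43 take in NF-control replicate 4 (15.8 CPM) and NF-training replicate 3 (3.62 CPM). These are the libraries with intestinal transcripts and with the most epcam. In trained fish ndufc1, NDUFB1 and ndufb3 led the overfeeding by sex interaction at 0.49, 0.42 and 0.43. In overfed fish ndufc1, NDUFB10 and NDUFB6 led the training by sex interaction at -0.81, -0.61 and -0.62.

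Across the 8 cells of group and sex, OF-control males had the highest mean for 28 of the 40 genes and OF-training males for 7. Centred on each gene's mean, the median log2 CPM was 0.33 in OF-control males, 0.20 in OF-training males, 0.03 in OF-training females, -0.01 in NF-training males, and between -0.18 and -0.10 in the other 4 cells, with OF-control females lowest for 16 genes. Single fish ran from -0.28 to 0.42, so that the order of the 4 lowest cells lies within the spread of their fish.

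The genes also moved together from fish to fish within a cell. After the mean of each cell was removed, the median correlation over 780 pairs of genes was 0.54 (24 fish, a description), 87.1% of pairs being above 0, against a median of -0.0009 over pairs of 1623 genes drawn at regular steps from all tested genes. The fish share their libraries and their scaling, which all pairs have in common. NDUFB11, of the membrane arm, moved most closely with the others (median 0.74), while ndufa4b (-0.34), ndufc2 (-0.32) and NDUFA4L2 (-0.03) did not. On log2(TPM + 1) the medians of ndufa4b, ndufc2 and NDUFA4L2 were 0.245, 0.024 and 0.285, and that over all 780 pairs was 0.72. Pairs of all genes were not taken on this scale, so 0.72 cannot be set against the -0.0009.

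Of the acyl carrier pair, ndufab1b made up 47.6 ± 4.90% of the summed TPM in males and 45.8 ± 5.57% in females (SD, n = 12 each; two-sided exact permutation p = 0.40, adjusted p = 0.63). The share was 49.6 ± 4.55% in OF-training fish and 44.1 ± 3.94% in OF-control fish (exact permutation p = 0.06, adjusted p = 0.30). ndufa4b made up 0.612 ± 1.06% of the NDUFA4 and ndufa4b sum in males and 0.291 ± 0.236% in females, and NF-control replicate 4 was the highest fish with 3.97%. No share differed after adjustment over the 10 tests of the family. The share of ndufa4b under overfeeding in untrained fish differed by -0.69 percentage points, and by -0.09 without NF-control replicate 4.

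Other genes of the respiratory chain were followed from gene lists, described by counts and medians. Between males and females, 23.2% of all genes were called higher and 22.6% lower in males (edgeR). Called higher were 6 of 21 complex IV genes, 3 of 8 complex III genes, 2 of 20 complex V genes and 1 of 4 complex II genes. Their lists had medians of 0.20, 0.28, 0.11 and 0.12, and 1 complex III gene, uqcrc2a, was called lower. Of 16 iron-sulfur cluster assembly genes 3 were called higher and 1 lower, with a median of 0.04. The 7 complex I genes of mitochondrial DNA lay the other way, with a median of -0.16 and 1 called lower, mt-nd4l, and so did the assembly factors, with 1 of 17 called higher, ACAD9, 6 called lower and a median of -0.34. NDUFAF5, which modifies a core subunit during assembly, was the assembly factor with the smallest p, at -0.95 ± 0.11 (adjusted p = 4.9e-07). The 9 genes used for mitochondrial mass had a median of -0.39, with 5 called lower. In untrained males under overfeeding, where 0 genes of these lists passed, the medians were 0.71 for complex III, 0.49 for complex V, 0.49 for the mitochondrial DNA genes, 0.46 for complex II, 0.45 for the assembly factors and 0.42 for complex IV, against -0.001 over all genes. In untrained females the medians were 0.05 for complex III, -0.02 for complex V, 0.29 for the mitochondrial DNA genes, -0.04 for complex II, 0.12 for the assembly factors and -0.04 for complex IV. The iron-sulfur and mitochondrial mass lists had medians of 0.18 and 0.35 in males and 0.02 and 0.14 in females.

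**Figure D5:**
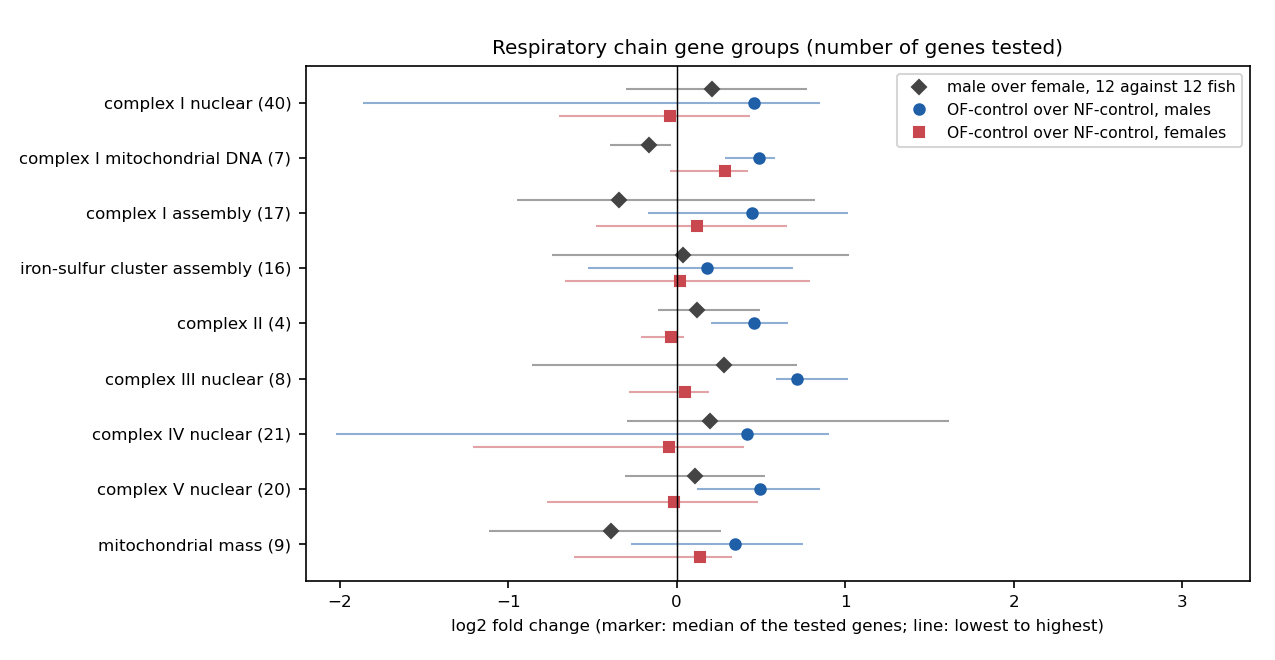
Median log2 fold change (markers) and range (lines) of the gene groups of the respiratory chain, for male over female livers and for OF-control over NF-control in males and in females; the number of tested genes stands beside each name. The medians for overfed males lie between 0.18 and 0.71, and the complex I genes of mitochondrial DNA lie below 0 in the comparison of the sexes.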

How the data were processed

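The 24 fish were grouped by the labels. The authors trimmed reads with Trim Galore (0.6.4, per the submitters' processing notes) and quantified them with Kallisto on GRCz11, and deposited an estimated count and a TPM value per gene for each fish; the estimated counts were rounded. Genes were tested in R 4.3.3 with edgeR 4.0.16 (quasi-likelihood, filterByExpr with a minimum count of 10, TMM, Benjamini-Hochberg over 16223 genes), with group and sex or with the 8 cells of group and sex; limma 3.58.1, DESeq2 1.42.0, other scalings, filters and covariates, and leaving out each fish were the alternatives. The fits were tested on simulated counts with changes planted in OF-control fish of both sexes, larger than most of those described here. The contrasts within a sex were not part of that test. CPM on the log2 scale used a prior count of 2. The p-values set a difference against the spread between fish, or for the shares against permuted labels of fish. They do not take in the spread between tanks. Because estimated counts were used, near-identical copies may share reads. The members, gene lists and named genes were chosen with earlier results of these data known. Genes are named by this rule: the 7 core subunits, the 3 highest and 3 lowest by TPM, the 3 with the smallest p in each direction (or interaction), copies, NDUFA4 relatives and genes that failed the filter. Some others are named beside these, such as genes called between the sexes and NDUFA9 for overfeeding in males. The values of 1 gene that the rules cover are not reported here, though counts and medians include it.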

Additional observations from a re-analysis of the deposited data

Results flagged for a closer look

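In 12 of 160 combinations of gene and group, 1 fish lay apart from the other 5 by Dixon's criterion, and 11 of these combinations are described. For fish of a single population chance alone gives about 1 in 20, or 8. Each group holds both sexes and the genes moved together, so that 8 is only a rough guide. ndufa4b reached 15.8 CPM in NF-control replicate 4 (1.18 to 1.95 CPM in the others) and 3.615 CPM in NF-training replicate 3 (1.02 to 1.57), the libraries with intestinal transcripts and with the most epcam. NF-control replicate 4 was also high for ndufc1 (5.121 CPM; others 3.43 to 3.92). NF-training replicate 3 was low for NDUFS1 (38.77 CPM; others 59.4 to 69.8), and NF-control replicate 6 for NDUFB10 (19.19 CPM; others 24.0 to 26.9) and NDUFS8 (47.25 CPM; others 67.8 to 77.4). NDUFS8 was low in OF-training replicate 6 (68.13 CPM; others 82.1 to 88.3), NDUFAB1 in OF-control replicate 4 (15.44 CPM; others 25.9 to 30.1) and NDUFB4, a membrane arm subunit, in OF-training replicate 1 (24.19 CPM; others 30.2 to 32.2). NDUFB4 was high in NF-control replicate 5 (37.31 CPM; others 23.5 to 25.5) and ndufa11 in OF-control replicate 3 (16.89 CPM; others 12.8 to 14.0).

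In 4 cases among the 40 tested genes and the treatment comparisons, all males of one group lay above or below all males of the other, and all females lay the opposite way. None passed the test of the interaction with sex, and such cases were not counted over all genes. For overfeeding in untrained fish the interaction was 0.93 for NDUFB10 (adjusted p = 0.77, edgeR) and 0.72 for NDUFS6 (adjusted p = 0.78), for overfeeding in trained fish 0.49 for ndufc1 (adjusted p = 0.88), and for training in overfed fish -0.49 for NDUFS8 (adjusted p = 0.9999).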

How the results depend on the processing

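Over 39 alternatives, the 17 of 40 genes called between males and females became 40 with library size alone, 39 on log2(TPM + 1) and 40 on log2(TPM + 0.1). Of all genes, 14428, 11324 and 11617 were called in these settings. With the vitellogenin share as a covariate, 0 of the 40 genes and 779 of all genes were called. The median of the 40 genes was then 0.37 in place of 0.21. Leaving out single fish gave 15 to 23 called genes, with the matching counts over all genes not given here. NDUFA1 turned to 1.11 with library size alone, 0.35 on both TPM scales (0.3486 and 0.3503) and 0.12 with the vitellogenin covariate, under which NDUFB1 was at -0.10 and NDUFB10 at -0.035; this share did not overlap between the sexes. DESeq2 called 2 genes between the sexes in NF-control (2959 of all genes) and 6 for overfeeding in untrained males (259 of all genes). For the overfeeding by sex interaction in untrained fish it called 1 (17 of all genes). The 24 genes higher with an unadjusted p under 0.05 in untrained males became 0 with library size alone (215 of all genes). They became 5 on each TPM scale (477 and 376 of all genes) and 2 without NF-control replicates 4 and 6 (449 of all genes). In these settings the median of the 40 genes stood above that of all genes by 0.46, by 0.39 and 0.43, and by 0.32. The cause was not tested. Leaving out single fish gave 10 (455 of all genes) to 26 for the count of 24 genes. It gave 0 to 2 called genes for overfeeding in untrained males and 0 to 1 for training in normally fed males. Between the sexes it gave 0 to 6 in OF-training, 9 to 18 in OF-control, 0 to 1 in NF-training and 0 to 2 in NF-control. These ranges are not set against the counts over all genes, which moved as well. In NF-control, 1 gene and 1648 of all genes were called without NF-control replicate 6. Without NF-training replicate 3, 1 gene and 2658 of all genes were called there.

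With the replicate number as a block, 21 genes were called between males and females and 0 in the other comparisons that could be estimated. The matching count over all genes is not given here. Between the sexes the median of the 40 genes was then 0.31, against 0.08 over all genes. Same-numbered fish did not deviate together (median correlation -0.004 over 36 pairs, 8 of them over 0.1), so the numbers were not taken as pairs. The overfeeding by sex interaction in untrained fish, the training by sex interaction in overfed fish, the contrasts within a sex that involve OF-control, and male against female within a group could not be estimated with the block. Of the values for named genes, 3528 kept direction and side of the threshold, 50 newly passed it and 58 no longer passed it. Direction changed for 35 values uncalled in the main fit and for 6 called ones. The share of ndufa4b under overfeeding passed (exact permutation, adjusted p = 0.03 over the 6 tests that the fish entered) without NF-control replicate 5. Depth limits the lowest genes, and 3 fish a cell limit the contrasts within each sex.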
